A study of Homo sapiens with 6 samples.

Results

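Glucocorticoid receptor (GR) binding sites on chromosomes 13, 20 and 22 are described here, out of a ChIP-seq study of GR in the MR/GR cell and the GR cell. All peaks of the 6 dexamethasone lists on these chromosomes were taken and merged where they overlapped by at least 1 bp. This gave 2959 sites of the 43713 in the genome, with 963 on chromosome 13, 1187 on chromosome 20 and 809 on chromosome 22. The chromosomes were chosen by measured values, namely their portion of the dexamethasone peaks and the portion of their GR-cell sites found in the MR/GR lists. The level of each chromosome as a whole is therefore a description with no test.

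Both lines are stable lines derived from U-2OS, a human osteosarcoma line, and each combination of receptors is represented by 1 line. The MR/GR cell carries the mineralocorticoid receptor (MR) beside GR, and the GR cell is the line without this addition in the study's design. Which promoter drives each receptor, and how much receptor each line makes, is not given in the sources used here. Cells were given 100 nM dexamethasone, a synthetic glucocorticoid, or DMSO vehicle for 2 hr, and chromatin was precipitated with an antibody against GR. Each line and treatment had 3 numbered peak lists: MR/GR cell with dexamethasone, MR/GR cell with vehicle, GR cell with dexamethasone and GR cell with vehicle. Nothing in the labels tells if the lists of 1 combination are from separate cultures, and p-values then cover only list-to-list spread, which may be technical.

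GR and MR are related steroid receptors that move to the nucleus on binding hormone and share the same DNA element, the glucocorticoid response element, as homodimers or together as heterodimers. Most GR sites lie away from promoters and act as enhancers, often in groups around a responsive gene. Chromosomes 13 and 22 are acrocentric, with short arms made of repeats and ribosomal RNA genes, so their sites fall on the long arm, while chromosome 20 has a short arm (20p) and a long arm (20q) that both carry genes.

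The deposited lists hold positions in build hg19 and no peak height. The MR/GR lists 1, 2 and 3 had 306, 752 and 495 peaks on the 3 chromosomes, and the GR-cell lists 1, 2 and 3 had 2551, 2125 and 1837. Read depth is unknown, so a site that is not listed may be unbound or may lie under the calling threshold. To follow binding from the GR cell into the MR/GR cell, retention is used below. It is the percent of the sites with a peak in all 3 GR-cell lists that also had a peak in a given MR/GR list, averaged over the 3 MR/GR lists. Such sites numbered 528 on chromosome 13, 650 on chromosome 20, 439 on chromosome 22 and 20640 on the 19 other autosomes. Retention was lowest in MR/GR list 1 and highest in list 2 on every one of these sets, the order of the lengths of these lists (3713, 10459 and 6660 peaks in all), so places are compared within a list.

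On chromosome 13 retention was 7.77% in list 1, 25.6% in list 2 and 18.6% in list 3. On chromosome 20 it was 22.2%, 36.3% and 28.3% in lists 1, 2 and 3. On chromosome 22 it was 20.05%, 37.8% and 31.2%. Within each list chromosome 13 was lower, and chromosomes 20 and 22 higher, than the 19 other autosomes, which gave 14.6%, 31.2% and 24.9% in lists 1, 2 and 3. The means were 17.3% ± 8.97 on chromosome 13, 28.9% ± 7.10 on chromosome 20, 29.7% ± 8.98 on chromosome 22 and 23.6% ± 8.36 on the other autosomes (SD, n = 3 lists). By mean retention chromosome 13 ranked 22 of 22 autosomes, chromosome 20 ranked 2 and chromosome 22 ranked 1. The chromosomes just outside the selection were 14, at 20.1%, and 17, at 27.5%.

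The number of MR/GR lists that held a site shows the same order. Chromosome 13 had 80 of 528 sites in at least 2 MR/GR lists, chromosome 20 had 177 of 650 and chromosome 22 had 128 of 439, where the background over all autosomes was 22.8%. Sites in none of the MR/GR lists numbered 374 on chromosome 13 (70.8%), 393 on chromosome 20 (60.5%) and 258 on chromosome 22 (58.8%), with 65.2% over all autosomes. Sites held by all 3 MR/GR lists, and so listed in all 6 dexamethasone lists, numbered 40 on chromosome 13, 130 on chromosome 20 and 82 on chromosome 22. That is 7.58%, 20% and 18.7% of the sites of the 3 GR-cell lists, with 13.4% over all autosomes. The selection rests on this contrast, so these shares are not read against the background.

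**Figure D1:**
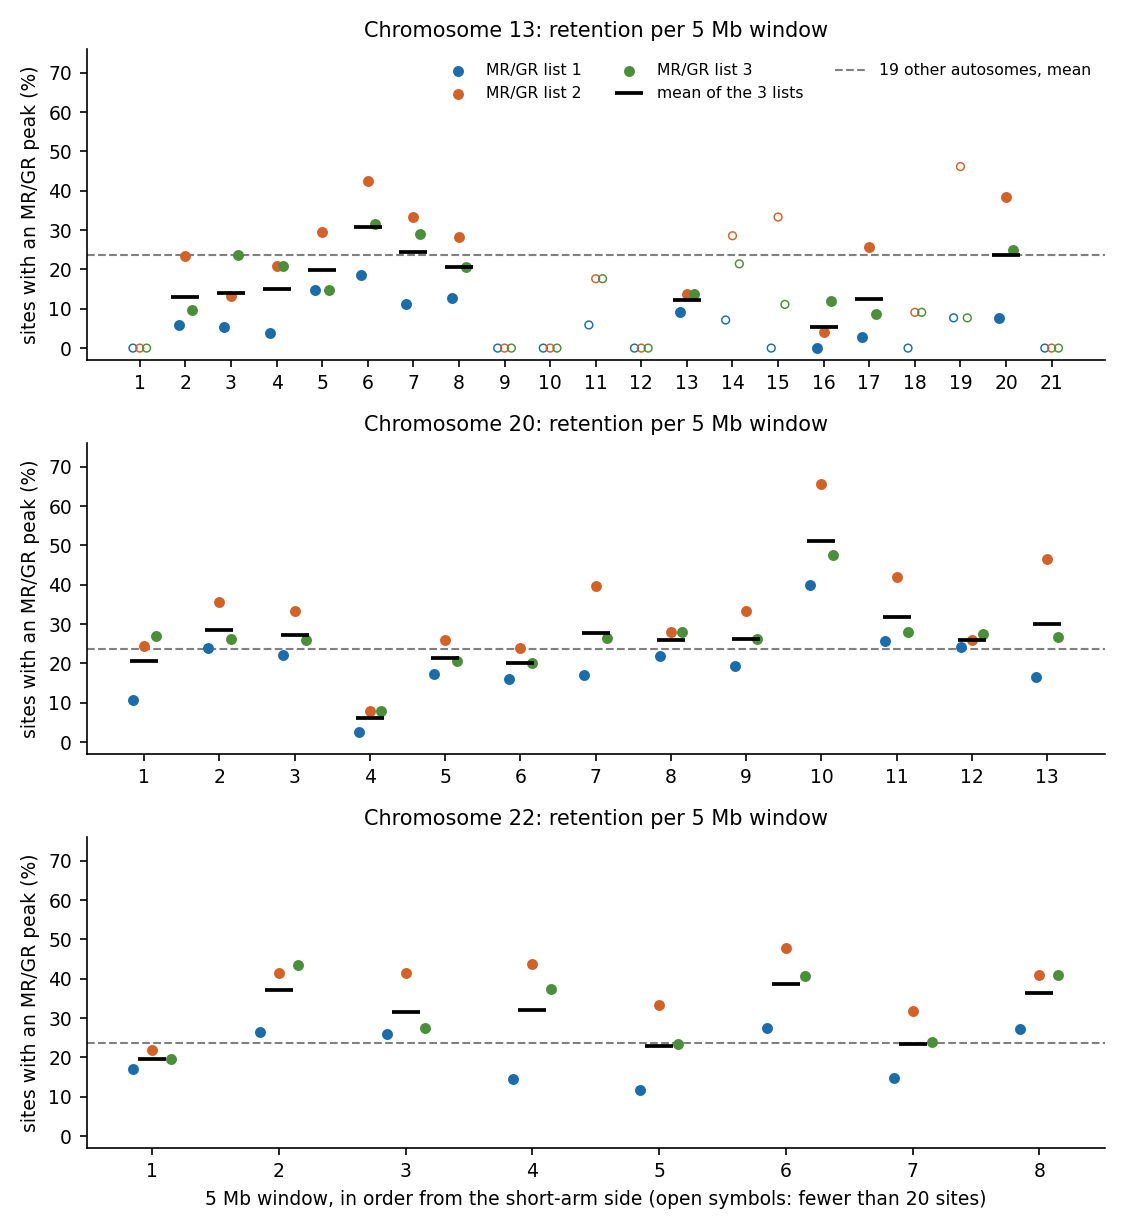
Retention in each MR/GR list (coloured points) along chromosomes 13, 20 and 22, per 5 Mb window in order from the short-arm side; the bar is the mean of the 3 lists, open symbols mark windows with fewer than 20 sites and the dashed line is the mean of the 19 other autosomes, 23.6%. On chromosome 20 a single window, from 45 to 50 Mb, stands above all others at 51.1%, and another, from 15 to 20 Mb, lies below all others of that chromosome at 6.14%.

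Retention was then followed along each chromosome in windows of 5 Mb, and windows with at least 20 sites of the 3 GR-cell lists were described. Of these there were 11 on chromosome 13, 13 on chromosome 20, 8 on chromosome 22 and 473 on the other autosomes, 505 in all. Chromosome 13 was low over most of its length, chromosome 22 was high over most of its length, and chromosome 20 lay slightly above the other autosomes apart from a single very high and a single very low window. On chromosome 13 the windows ranged over 5.33% to 30.9% (median 15.1%), and 3 of 11 lay above the median window of the other autosomes, 23.1%. On chromosome 20 they ranged over 6.14% to 51.1% (median 26.3%), with 9 of 13 above it. On chromosome 22 they ranged over 19.5% to 38.6% (median 31.8%), with 6 of 8 above it. The middle of the 473 windows of other autosomes, between their quartiles, was 17.1% to 28.8%, and their full range was 3.79% to 47.6%.

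**Figure D2:**
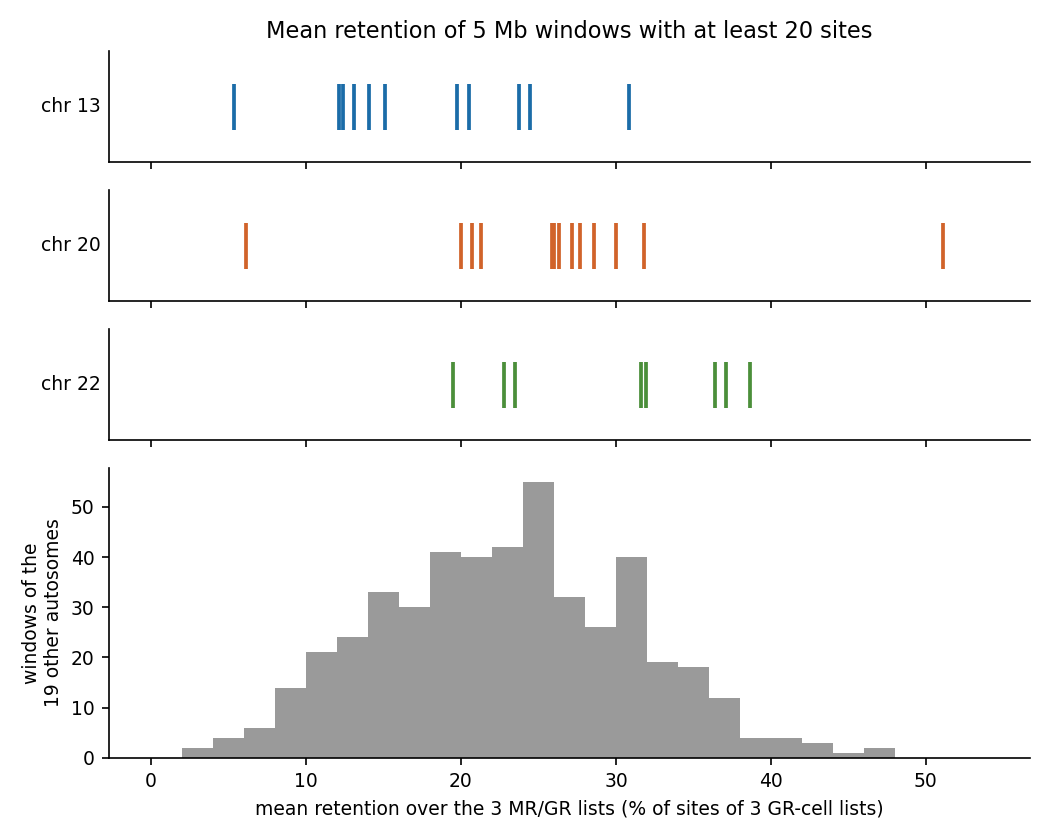
Mean retention over the 3 MR/GR lists of each 5 Mb window with at least 20 sites, as 1 line per window for chromosomes 13, 20 and 22 and as a histogram for the 473 windows of the 19 other autosomes. The highest window of chromosome 20, at 51.1%, lies outside the range of the other autosomes, which ends at 47.6%, while the rest of chromosomes 13, 20 and 22 lie within it.

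The window from 45 to 50 Mb of chromosome 20 had the highest mean retention of the 505 windows. It is also the window with most sites of the 3 GR-cell lists, 105. MR/GR lists 1, 2 and 3 held 40%, 65.7% and 47.6% of them (51.1% ± 13.2, SD, n = 3), which ranked 1, 1 and 3 of 505 windows within the lists. The next windows were 65 to 70 Mb of chromosome 15 and 35 to 40 Mb of chromosome 8, each at 47.6% with 35 sites. Of the 105 sites, 53 were in at least 2 MR/GR lists (50.5%, Wilson 95% interval 41.1 to 59.9), 38 were in all 3 and 35 were in none. Against the other autosomes the window was 27.6 points higher, and 24.1 to 29.96 points higher with any single list left out. The window was picked for being the highest, so this difference has no test, and the interval covers counting error only.

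Retention in that window was not carried by a single cluster. In 1 Mb steps its 5 parts, in order from 45 Mb, had mean retention of 33.3% (18 sites), 52.6% (26 sites), 43.6% (13 sites), 54.0% (21 sites) and 63.0% (27 sites). The step before it, 44 to 45 Mb, had 25.6% of 13 sites, and the step after it, 50 to 51 Mb, had 37.0% of 9 sites, above the first of the 5 parts. Further out, the 11 sites at 43 to 44 Mb had 66.7%. Sites with any other site within 10 kb, of either line, had 57.1% ± 8.40 (63 sites), and sites without one had 42.1% ± 20.5 (42 sites). Both kinds were above their counterparts on the other autosomes, 27.8% ± 9.28 with and 20.7% ± 7.74 without such a neighbour (SD, n = 3 lists each).

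The weaker sites of the window, those in only 1 or 2 GR-cell lists, were also held more often than elsewhere. Their mean retention was 14.6% over 48 sites, which ranked 2 of 505 windows, against 3.87% on the other autosomes. The 16 sites of exactly 2 GR-cell lists had 18.8%, 25% and 25% in MR/GR lists 1, 2 and 3, against 1.73%, 8.63% and 4.19% for such sites of the other autosomes. Of the 165 sites of all kinds in the window, 12 were called in MR/GR lists only, each in a single list, where the background over all autosomes was 5.29%.

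The stretch from 45 to 50 Mb of chromosome 20 is known for EYA2, a developmental transcription coactivator and phosphatase, NCOA3, a coactivator of nuclear receptors, SULF2, an enzyme that edits heparan sulfate, and PREX1, an activator of Rac. Further along lie SNAI1, a repressor of epithelial genes, CEBPB, a transcription factor of inflammation and fat cell formation, and PTPN1, a phosphatase that dampens insulin signalling. These genes are given as background on the stretch; no site is assigned to a gene, since no hg19 annotation was used here.

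The leading locus of the window is a run of 11 sites over 77.9 kb at chr20:48990125-49068031, where a locus means sites with gaps of at most 25 kb. MR/GR lists 1, 2 and 3 had 6, 9 and 6 peaks in it, against 8, 7 and 8 in GR-cell lists 1, 2 and 3. All 6 of its sites of the 3 GR-cell lists were in all 3 MR/GR lists, and these were chr20:49011830-49012253, chr20:49032119-49032542, chr20:49039018-49039441, chr20:49057309-49057751, chr20:49059477-49059906 and chr20:49067608-49068031. The rest were weaker or of the MR/GR cell only, with 2 sites in MR/GR list 2 alone. At this locus the lines had similar numbers of peaks, although the MR/GR lists held far fewer peaks overall.

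The second locus is chr20:45945961-46000343, with 6 sites over 54.4 kb. It had 5, 5 and 4 peaks in MR/GR lists 1, 2 and 3, and GR-cell lists 1, 2 and 3 had 6, 6 and 5. Of its 5 sites of the 3 GR-cell lists, 4 were in all 3 MR/GR lists, and chr20:45977553-45978015 was in lists 1 and 2. The site chr20:45957816-45958192, in 2 GR-cell lists, was in none. Both loci were selected for being held, so their counts describe the window and do not test it.

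The window was picked for retention in the same MR/GR lists, so its portion of the peaks of chromosome 20 restates that choice and is given as a description. It held 47 of 167, 89 of 339 and 58 of 222 peaks in MR/GR lists 1, 2 and 3 (28.1%, 26.3% and 26.1%), against 149 of 1043, 119 of 830 and 111 of 732 in GR-cell lists 1, 2 and 3 (14.3%, 14.3% and 15.2%). Groups that do not overlap were found in 56.6% of the 505 windows in either direction, 25.1% with the MR/GR lists higher and 31.5% with them lower. On chromosomes 13, 20 and 22 the groups did not overlap in 17 of 32 windows (53.1%), with the MR/GR lists higher in 7 and lower in 10, a share near that background. For a single window the exact permutation test of 3 lists against 3, two-sided, gives no less than p = 0.1, and the smallest value after Benjamini-Hochberg adjustment over 505 windows was 0.177.

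Without this window, chromosome 20 had a mean retention of 24.6% ± 5.96 over 545 sites, close to the other autosomes at 23.6% ± 8.36 (SD, n = 3 lists). By list the remaining sites had 18.7%, 30.6% and 24.6%, against 14.6%, 31.2% and 24.9% on the other autosomes. List 1 was thus higher and lists 2 and 3 were slightly lower. The lowest window, 15 to 20 Mb, is still among these sites. With that window left out too, the 507 remaining sites had 19.9%, 32.3% and 25.8% in lists 1, 2 and 3 (26.0% ± 6.22). Each of these values was above that of the other autosomes.

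The next highest window of chromosome 20 adjoins the first. From 50 to 55 Mb, a stretch known for SALL4, a transcription factor of stem cells, ZNF217, a zinc finger protein, and CYP24A1, the enzyme that breaks down active vitamin D, lists 1, 2 and 3 held 25.6%, 41.9% and 27.9% of 43 sites (31.8% ± 8.80). Its leading loci were chr20:52444458-52455289, with both sites of the 3 GR-cell lists in at least 2 MR/GR lists, and chr20:50063393-50101613, with 1 of 3.

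**Figure D3:**
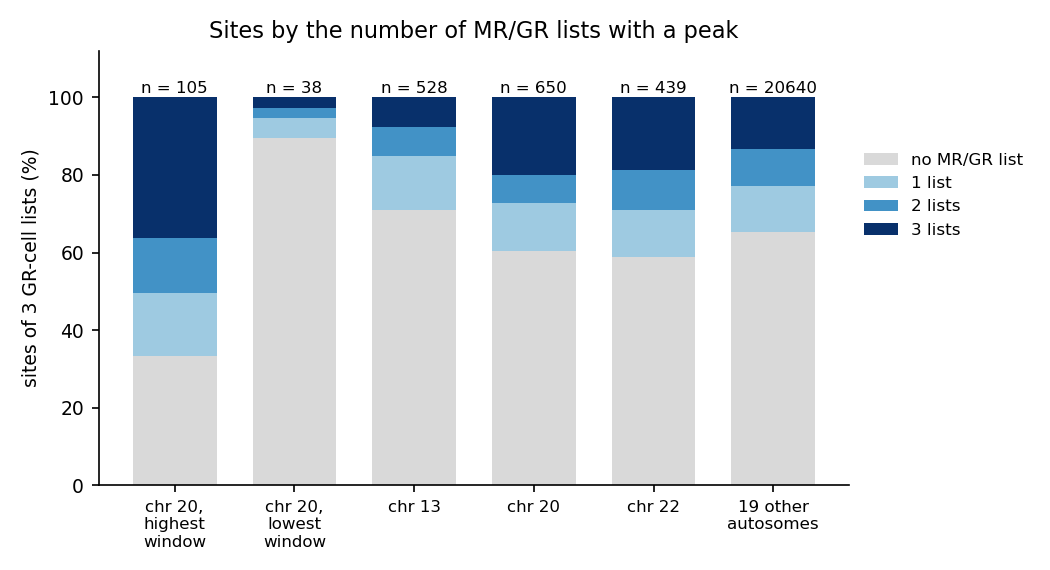
Sites of the 3 GR-cell lists by the number of MR/GR lists with a peak (percent of sites, stacked), for the highest window (45 to 50 Mb) and the lowest window (15 to 20 Mb) of chromosome 20, for chromosomes 13, 20 and 22 and for the 19 other autosomes. All 3 MR/GR lists held 36.2% of the sites in the highest window and 2.63% in the lowest, against 13.2% on the other autosomes.

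On the short arm of chromosome 20 the window from 15 to 20 Mb was close to empty in the MR/GR cell. MR/GR lists 1, 2 and 3 held 1, 3 and 3 of its 38 sites, or 2.63%, 7.89% and 7.89% (6.14% ± 3.04, SD, n = 3), which ranked 497 of 505 windows. Of the 38 sites, 34 were in no MR/GR list. None of the 22 sites in 1 or 2 GR-cell lists was held, and no site was called in the MR/GR cell only. In all, MR/GR lists 1, 2 and 3 had 1, 3 and 3 peaks in the window, against 53, 45 and 45 in GR-cell lists 1, 2 and 3. That is 0.599%, 0.885% and 1.35% of the chromosome 20 peaks of the MR/GR lists, against 5.08%, 5.42% and 6.15% for the GR-cell lists. The window was picked for being the lowest of chromosome 20, so these values are a description. The stretch is known for KIF16B, a kinesin that moves endosomes, PCSK2, a protease that matures peptide hormones, and SLC24A3, a sodium, potassium and calcium exchanger.

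Between 17 and 19 Mb none of the 17 sites of the 3 GR-cell lists was in any MR/GR list. This stretch was picked for its empty 1 Mb steps, so the count is a description and no upper bound is given. The leading locus of the window lies there, chr20:18171309-18269133, with 7 sites over 97.8 kb. The MR/GR lists had 0, 0 and 0 peaks in it, against 6, 5 and 5 in GR-cell lists 1, 2 and 3. Its 4 sites of the 3 GR-cell lists were chr20:18183771-18184223, chr20:18185482-18185905, chr20:18233171-18233612 and chr20:18252960-18253383. The second locus, chr20:16878888-16928638, had 3 of 4 such sites in no MR/GR list, and the remaining one was in lists 2 and 3. Both loci were selected for sites in no MR/GR list, so their counts describe the window and do not test it. The other low window of chromosome 20, at 25 to 30 Mb around the centromere, had 20% ± 4.0 of 25 sites, a value within the quartiles of the other autosomes.

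The arms of chromosome 20 were split in the widest gap between sites, chr20:26185966-29419877, which spans the centromere. On 20p retention was 16.5%, 26.5% and 22.1% in MR/GR lists 1, 2 and 3 (21.7% ± 5.03, 249 sites). On 20q it was 25.7%, 42.4% and 32.2% (33.4% ± 8.42, 401 sites). The short arm was thus lower in each list, with differences of -9.22, -15.9 and -10.1 points (-11.7 ± 3.63, SD, n = 3 lists). The exact sign-flip test over the 3 lists, two-sided, gave p = 0.25, the smallest value it allows, and 0.25 after adjustment over the 4 differences between segments. Of the 17 autosomes with sites on both arms, chromosome 20 had the widest difference, and the 16 others lay between -5.59 and 9.99 points. A difference of the same sign in all 3 lists was common, with 12 of those 16.

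**Figure D4:**
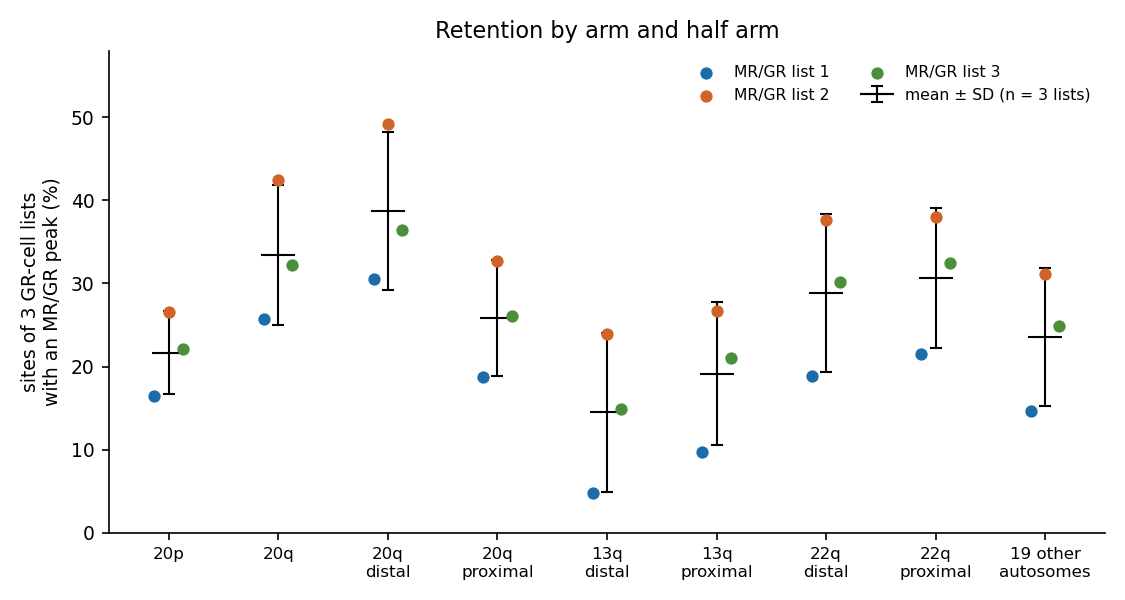
Retention in MR/GR lists 1 to 3 (coloured points) and their mean ± SD (n = 3 lists) by chromosome arm and by distal and proximal segment. The distal part of 20q has the highest mean, 38.7%, and the distal part of 13q the lowest, 14.5%, with the 19 other autosomes at 23.6%.

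The long arms were each split at the 5 Mb boundary nearest their middle, at 45 Mb on chromosome 20, 65 Mb on chromosome 13 and 35 Mb on chromosome 22. The distal part of 20q had 30.5%, 49.2% and 36.4% in lists 1, 2 and 3 (38.7% ± 9.53, 236 sites), and the proximal part had 18.8%, 32.7% and 26.1% (25.9% ± 6.97, 165 sites). The distal part was higher by 11.7, 16.4 and 10.4 points (12.8 ± 3.17; exact sign-flip p = 0.25, adjusted 0.25). This was the widest such difference of the 22 autosomes, with the 19 others between -9.94 and 11.9 points.

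Both differences on chromosome 20 rest largely on the window from 45 to 50 Mb. Without it the short arm minus the long arm was -5.45 points, and the distal part of 20q was 2.89 points above the proximal part. The rest of the distal part had 28.8% ± 6.58 (131 sites). When the boundary was moved by 5 Mb toward the end of the arm, which puts the window in the proximal part, the difference turned to -6.93 points. Without the window from 15 to 20 Mb, the short arm had 24.5% ± 5.45 (211 sites), and the short arm minus the long arm was -8.93 points.

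On 13q and 22q the segments were closer. The distal part of 13q had 4.78%, 23.9% and 14.8% (14.5% ± 9.57, 209 sites), and the proximal part had 9.72%, 26.6% and 21.003% (19.1% ± 8.62, 319 sites). The distal part was lower in each list, with a mean difference of -4.61 ± 1.75 points (exact sign-flip p = 0.25, adjusted 0.25). The distal part of 22q had 18.8%, 37.7% and 30.1% (28.9% ± 9.48, 239 sites), and the proximal part had 21.5%, 38.0% and 32.5% (30.7% ± 8.40, 200 sites). This difference, -1.80 ± 1.27 points (exact sign-flip p = 0.25, adjusted 0.25), turned positive under several other settings, for example 0.456 without GR-cell list 3.

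The portion of a list's own peaks that falls in a segment is not bound by the portion of peaks that chose the chromosome, and it was compared between the lines. It uses the same MR/GR peaks as the retention differences above, and most of these lie at GR-cell sites. The comparison is thus not separate support for those differences. The short arm held 27.5%, 28.3% and 30.6% of the chromosome 20 peaks of MR/GR lists 1, 2 and 3 (28.8% ± 1.61), against 36.9%, 38.2% and 39.1% in GR-cell lists 1, 2 and 3 (38.1% ± 1.09). The distal part held 70.2%, 65.0% and 65.6% of the 20q peaks of the MR/GR lists (67.0% ± 2.87), against 60.2%, 58.9% and 59.4% in the GR-cell lists (59.5% ± 0.659). The MR/GR lists thus lay lower for 20p and higher for distal 20q, with no overlap. The distal 20q difference rests on the window from 45 to 50 Mb. Without its peaks the distal part held 51.4%, 44.8% and 44.8% of the 20q peaks of MR/GR lists 1, 2 and 3 (47.0% ± 3.78), against 48.5%, 46.4% and 45.97% in GR-cell lists 1, 2 and 3 (47.0% ± 1.36), and the groups overlapped. For 20p the difference was then -5.17 points, still without overlap. The distal part of 13q held 25%, 32.9% and 31.0% of chromosome 13 peaks in the MR/GR lists (29.6% ± 4.14), against 37.1%, 38.1% and 39.3% in the GR-cell lists (38.2% ± 1.120). The distal part of 22q held 49.5%, 51.0% and 51.9% of chromosome 22 peaks in the MR/GR lists (50.8% ± 1.22), against 53.0%, 53.2% and 55.1% in the GR-cell lists (53.8% ± 1.17).

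In all 4 segments the groups did not overlap, and each exact permutation test, two-sided, gave p = 0.1 (adjusted 0.1 over the 4 shares), the smallest value 3 lists against 3 allow. Groups that do not overlap were common elsewhere too, for 68.8% of the other chromosomes with both arms and 57.9% of the other distal parts. The differences in means were -9.23 points for 20p, 7.46 for distal 20q, -8.51 for distal 13q and -2.97 for distal 22q. For distal 22q the exact permutation p was 0.3 (-2.09 points) with peaks at sites of at least 2 lists. With the boundary 5 Mb nearer the centromere it was 0.6 (-2.44 points), and with the boundary 5 Mb nearer the end it was 0.9 (-0.136 points).

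**Figure D5:**
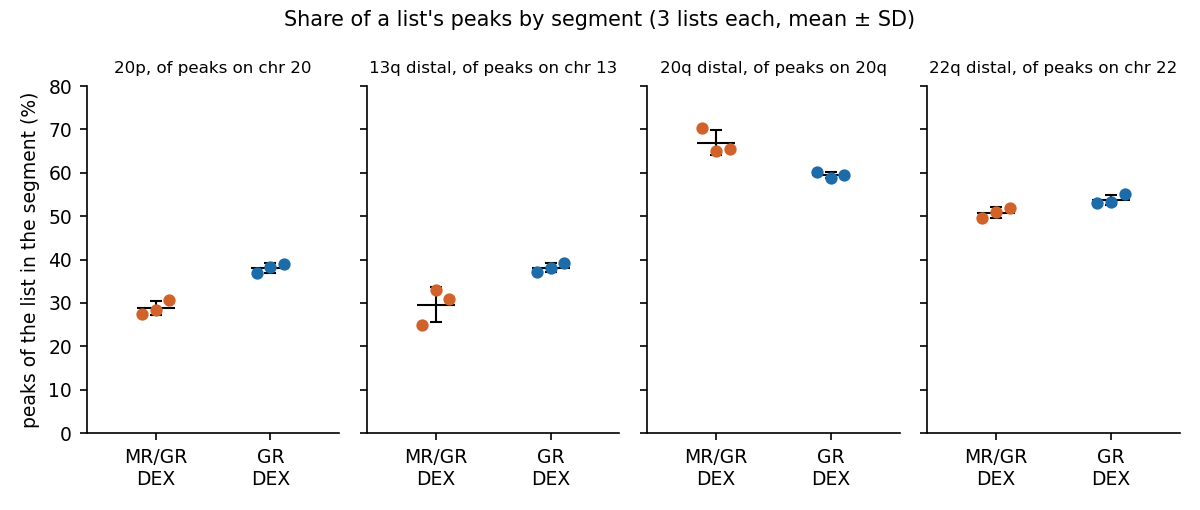
Percent of a list's peaks that fall in a segment, for the 3 MR/GR dexamethasone lists (left) and the 3 GR-cell dexamethasone lists (right), with mean ± SD (n = 3 lists each); the total is the peaks on chromosome 20, 13 or 22, or on 20q for its distal part. The MR/GR lists lie at 28.8% against 38.1% for 20p and at 67.0% against 59.5% for distal 20q, without overlap.

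On chromosome 13 the windows of highest retention lie side by side in the proximal part. From 40 to 45 Mb, a stretch known for FOXO1, a transcription factor held in check by insulin, and TNFSF11, the osteoclast factor RANKL, lists 1, 2 and 3 held 18.5%, 42.6% and 31.5% of 54 sites (30.9% ± 12.0). From 45 to 50 Mb, a stretch known for TSC22D1, a leucine zipper protein, and RB1, the retinoblastoma tumour suppressor, they held 11.1%, 33.3% and 28.9% of 45 sites (24.4% ± 11.8). The first window ranked 99 of 505 and the second 217.

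The largest locus of chromosome 13 is in the first of these windows, chr13:40734469-40847013, with 12 sites over 113 kb. It had 4, 4 and 5 peaks in MR/GR lists 1, 2 and 3, against 11, 9 and 11 in GR-cell lists 1, 2 and 3. Held sites and sites in no MR/GR list are mixed along it. Of its 9 sites of the 3 GR-cell lists, chr13:40749653-40750076, chr13:40795456-40795879, chr13:40810312-40810743 and chr13:40846549-40847013 were in all 3 MR/GR lists. In between, chr13:40755511-40755936, chr13:40785594-40786024 and chr13:40841432-40841855 were in none, as was chr13:40734469-40734904 at its start, and chr13:40816888-40817316 was in list 3 only. At chr13:45423550-45445071, the leading locus of the second window, all 3 sites of the 3 GR-cell lists were in at least 2 MR/GR lists.

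The lowest window of chromosome 13 was 90 to 95 Mb, a stretch known for GPC5 and GPC6, which encode the cell-surface proteoglycans glypican 5 and 6. MR/GR lists 1, 2 and 3 held 0, 1 and 3 of its 25 sites (5.33% ± 6.11), which ranked 501 of 505 windows, and 22 of the 25 were in none. With so few held sites, single lists set the value, 8.0% without MR/GR list 1 and 2.0% without MR/GR list 3. In its leading locus, chr13:94962201-94997941, 3 of 4 sites of the 3 GR-cell lists were in no MR/GR list and chr13:94962201-94962624 was in list 3. At chr13:92679460-92687742 both sites were in none. From 75 to 80 Mb, a stretch known for LMO7, a LIM domain protein, and EDNRB, an endothelin receptor, lists 1, 2 and 3 held 2, 3 and 3 of 22 sites (12.1% ± 2.62), and at chr13:78555533-78565546 both sites were in none. The loci named in both windows were selected for sites in no MR/GR list, so their counts are a description.

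Sites on chromosome 13 were sparse in 10 windows, which lie in both parts of the arm. These windows with fewer than 20 sites held 87 sites of the 3 GR-cell lists together, and lists 1, 2 and 3 held 3.45%, 19.5% and 10.3% of them (11.1% ± 8.07). Over windows, Spearman's rho between retention and the number of sites of the 3 GR-cell lists was 0.709 on chromosome 13 (11 windows), 0.278 on chromosome 20 (13 windows) and 0.332 on the other autosomes (473 windows). On chromosome 22 it was 0.0238 over 8 windows, with no visible relation. These values are descriptions over windows that share the same lists. A near neighbour did not go with retention on chromosome 13, at 16.1% ± 8.06 for 211 sites with another site within 10 kb and 18.1% ± 9.64 for 317 without one. On chromosome 20 the values were 33.9% ± 6.74 with and 24.7% ± 7.40 without a neighbour, and on chromosome 22 they were 35.2% ± 7.89 with and 25.2% ± 9.87 without (SD, n = 3 lists).

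On chromosome 22 the highest window was 40 to 45 Mb, a stretch known for TNRC6B, a protein of microRNA silencing, and EP300, a histone acetyltransferase and transcription coactivator. MR/GR lists 1, 2 and 3 held 27.5%, 47.8% and 40.6% of its 69 sites (38.6% ± 10.3), which ranked 15 of 505 windows. Its leading locus, chr22:40023884-40134305, has 11 sites over 110 kb, with 5, 5 and 6 peaks in MR/GR lists 1, 2 and 3 against 11, 10 and 9 in GR-cell lists 1, 2 and 3. Of its 9 sites of the 3 GR-cell lists, 6 were in at least 2 MR/GR lists and 3, at chr22:40031969-40032458, chr22:40088870-40089293 and chr22:40107332-40107755, were in none. At the smaller locus chr22:40350681-40364988 all 3 sites were in at least 2 MR/GR lists.

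The window from 20 to 25 Mb, a stretch known for BCR, which is fused to ABL1 in chronic myeloid leukaemia, had 26.4%, 41.5% and 43.4% of 53 sites in lists 1, 2 and 3 (37.1% ± 9.31). This value depended on which GR-cell sites were counted. None of its 23 sites of exactly 2 GR-cell lists was in an MR/GR list, which puts its retention at 25.9% with sites of at least 2 GR-cell lists and at 26.9% without GR-cell list 3. In its leading locus, chr22:23816045-23909800, 4 of 5 sites of the 3 GR-cell lists were in at least 2 MR/GR lists and the 5 sites of 1 or 2 GR-cell lists were in none.

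The lowest window of chromosome 22 was 15 to 20 Mb, next to the centromere, where lists 1, 2 and 3 held 17.1%, 21.95% and 19.5% of 41 sites (19.5% ± 2.44). It ranked 331 of 505 windows and lay within the quartiles of the other autosomes. It holds the locus with most sites on the 3 chromosomes, chr22:16507539-16620594, with 20 sites over 113 kb. The MR/GR lists had 0, 0 and 0 peaks there, against 17, 15 and 8 in GR-cell lists 1, 2 and 3, and all 7 sites of the 3 GR-cell lists were in no MR/GR list. The other 34 sites of the window had 20.6%, 26.5% and 23.5% in lists 1, 2 and 3 (23.5% ± 2.94). How reads that map to several places were treated is not given in the sources used here, and the region next to this centromere is known for duplicated sequence. At chr22:19543069-19619499, away from it, 5 of 6 such sites were in no MR/GR list. Both loci were selected for sites in no MR/GR list, so their counts describe the window and do not test it. The window from 35 to 40 Mb, a stretch known for the haem-degrading enzyme gene HMOX1, the non-muscle myosin gene MYH9 and the growth factor gene PDGFB, had 11.7%, 33.3% and 23.3% of 60 sites (22.8% ± 10.8), close to the other autosomes.

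Sites called in MR/GR lists and in no GR-cell list were few. They made up 21 of the 963 sites on chromosome 13 (2.18%), 70 of 1187 on chromosome 20 (5.90%) and 63 of 809 on chromosome 22 (7.79%), with 5.29% over all autosomes. Most were in a single list, and 135 of the 154 were in MR/GR list 2, the longest. In at least 2 MR/GR lists there were 2 on chromosome 13, 5 on chromosome 20 and 11 on chromosome 22. On chromosome 22, 19 of the 63 lay between 25 and 30 Mb, the highest number of the 567 windows with a site of the 3 GR-cell lists, where no window of the other autosomes had more than 15. This stretch is known for CRYBB1, a lens crystallin gene, MN1, a transcription coregulator gene, and XBP1, a transcription factor of the unfolded protein response.

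In that window 4 of the 19 were in at least 2 MR/GR lists. They were chr22:27635134-27635440 and chr22:27848979-27849317, in all 3 lists, and chr22:27876523-27876826 and chr22:29636505-29636811, in lists 2 and 3. Those at 27635134 and 27848979 are the only MR/GR-cell sites without a GR-cell peak that all 3 MR/GR lists held on the 3 chromosomes. The 58 sites of the 3 GR-cell lists in that window had 25.9%, 41.4% and 27.6% in lists 1, 2 and 3 (31.6% ± 8.50). Their mean retention was thus near that of the whole chromosome, 29.7%.

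With vehicle, peaks on the 3 chromosomes were rare. MR/GR vehicle lists 1, 2 and 3 had 16, 1 and 6 peaks, against 9, 15 and 21 in GR-cell vehicle lists 1, 2 and 3, so the lists of the lines overlapped in number. Pooled over lists, 2 of the 23 MR/GR vehicle peaks (8.70%) lay at sites held by at least 2 dexamethasone lists of the same line. For the GR cell it was 26 of 45 (57.8%). The same site can recur in several lists, so these peaks are not independent, and both of the 2 were at chr22:35887403-35887817. The MR/GR dexamethasone lists had 306 to 752 peaks here and the GR-cell ones 1837 to 2551. Whether this difference in number bears on the shares was not tested. At a site of any dexamethasone list, of either line, lay 20 of 23 (87.0%) of the MR/GR vehicle peaks and 35 of 45 (77.8%) of the GR-cell ones. This count differs from the first in both the number of lists and the line. The site chr20:36661918-36662223 was in all 3 MR/GR vehicle lists and in no GR-cell list of either treatment, and chr22:19466789-19467178 was in all 3 GR-cell vehicle lists and in no MR/GR list. No vehicle site in at least 2 lists of a line fell in the windows of highest or lowest retention of chromosome 20.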

How the data were processed

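GR ChIP-seq peak lists of 4 immunoprecipitation samples, with 3 numbered lists each, were used. The 2 input samples have no list used here, although the list names give an input as the control. The GR-cell input is labelled as treated with dexamethasone and the MR/GR-cell input as vehicle. If each list was called against the input of its line, the treatment of the input differs with the line. The authors deposited a chromosome, start and end per peak, with no count, score or other value. The build was hg19, and the tools named were HOMER 4.8.3, Picard 1.115, SAMtools 1.3.1, Trim Galore 0.4 and Bowtie, per the submitters' processing notes. The role of each, the calling threshold and the input behind each list are not given in the sources used here. Peak widths were typically 280 to 304 bp in the MR/GR dexamethasone lists and 354 to 424 bp in the GR-cell ones, and wider peaks overlap more easily. Lists were treated as called one by one, with n = 3 per group, and their numbers come from the deposited lists.

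Overlapping peaks of the 6 dexamethasone lists were merged into sites with Python 3.11.15, numpy 2.4.6 and pandas 2.3.3. Over the 22 autosomes, 42395 sites were identical to those of bedtools 2.31.1. Counting per segment was tested on simulated data for the MR/GR and GR dexamethasone lists, with 1588 sites, and 21 of 21 counts were exact. Exact tests used SciPy 1.17.1, and figures matplotlib 3.10.9. Windows of 5 Mb are counted from the start of the chromosome.

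The members, windows, gene names and tests were chosen with earlier results of these data known. The rule for named windows took, per chromosome, the 2 highest and 2 lowest in mean retention with at least 20 sites. In each, the 2 loci with most sites of 3 GR-cell lists that were held (high) or in no MR/GR list (low) were named. The window from 25 to 30 Mb of chromosome 22 and its single sites, the 1 Mb steps, and values without a window or locus were chosen after their values were seen. A genome sequence or annotation of hg19 was not used here. Genes are named for a stretch from general knowledge. Their presence and order along the chromosome were checked in RefSeq GRCh38.p14, and whether they lie in the hg19 stretch was not. Alternatives were other numbers of lists per site, peak centres within 100 bp, peaks merged within 500 bp, isolated sites, other windows and boundaries, a block on list number, and dropping single lists.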

Additional observations from a re-analysis of the deposited data

How the results depend on the processing

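Of 343 alternatives, 132 were for differences. Of these 126 kept their sign, 13 of them with a change in size of over 1.5 times, and 6 reversed. Some of the 126 could not change. Moving the boundary leaves both 20p differences as they were, and the block on list number alters only the p-value of a share difference. Of the 211 for other values, 173 kept their size and 38 moved, by more than the spread between lists for retention. Leaving out an MR/GR list cannot move a mean of 3 lists by more than that spread, so those alternatives were bound to be kept. Alternatives that leave out a single window or locus, set a window against the other autosomes, use 1 Mb steps or cover the arms of other autosomes were chosen after seeing the data. Counting sites in at least 1 MR/GR list gave 29.2% on chromosome 13, 39.5% on chromosome 20 and 41.2% on chromosome 22, and requiring all 3 gave 7.58%, 20% and 18.7%. The share of vehicle peaks at a dexamethasone site became 87.0% in the MR/GR cell and 77.8% in the GR cell with sites of any list. The difference between distal and proximal 22q reversed to 0.0863 points with sites of at least 2 GR-cell lists, 1.34 with sites in at least 1 MR/GR list, 2.07 with the boundary 5 Mb nearer the end and 0.456 without GR-cell list 3. With the boundary of 20q moved likewise, the difference in retention was -6.93 and that in share -6.67 points; the moved boundary puts the window from 45 to 50 Mb in the proximal part. With isolated sites alone, 20p minus 20q was -7.79 and distal minus proximal 20q 5.47 points; without the window from 45 to 50 Mb they were -5.45 and 2.89, and the share differences -5.17 for 20p and 0.0016 for distal 20q. The cause of the other changes was not tested.

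Leaving out each list in turn gave 13.1% to 22.1% on chromosome 13, 25.2% to 32.3% on chromosome 20 and 24.9% to 34.5% on chromosome 22. The differences ranged over -13.0 to -9.65 points for 20p minus 20q, -5.79 to -3.83 for distal minus proximal 13q, 9.82 to 14.1 for 20q and -2.52 to 0.456 for 22q. The share differences ranged over -10.1 to -8.58 for 20p, -10.2 to -6.19 for distal 13q, 5.81 to 8.43 for distal 20q and -3.51 to -2.30 for distal 22q. Windows whose groups do not overlap ranged over 53.1% to 68.8% on chromosomes 13, 20 and 22. Over all autosomes they ranged over 58.2% to 66.5% with the same lists left out, a similar share. Of 157 alternatives for named windows 127 kept their value and 30 moved, where those that leave out an MR/GR list were bound to be kept. The window from 45 to 50 Mb of chromosome 20 kept 43.8% to 56.7% with any single list left out, and the window from 15 to 20 Mb kept 5.26% to 7.89%. The window from 90 to 95 Mb of chromosome 13 had 8.0% without MR/GR list 1 and 2.0% without MR/GR list 3.

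Over the windows of the autosomes, deviations from the group means correlated at -0.00505, -0.0918 and -0.0679 for lists that share a number, and at -0.105 to 0.232 for the rest, so the numbers were not taken to pair the lists. With a replicate block on list number, every numbered pair differed in the same direction in 62.5% of the 32 windows (65.9% of 505). Groups that overlap can also meet this criterion. Under the same block the 4 share differences of segments had an exact sign-flip p = 0.25. Peaks carry no depth, so a lost site and a site under the threshold cannot be told apart.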
